A study of Mus musculus with 12 samples.

Results

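Integrins are receptors of 1 alpha and 1 beta chain that hold a cell to the proteins around it and pass signals in both directions. The transcripts of 9 integrin chains, Itga3, Itga5, Itga6, Itga7, Itga9, Itgav, Itgb1, Itgb3 and Itgb5, were followed through the 12 libraries by gene symbol. All 9 were among the 22310 symbols counted, and all 9 were among the 13540 genes that passed the filter on low counts. The libraries come from satellite cells, the stem cells of skeletal muscle, of C57BL/6 mice whose hindlimb muscles were injured with 1.2% BaCl2 and which were sampled 3 days later. The groups were Hoxa9 knock-out mice of 22 to 28 months (old knockout), Hoxa9 knock-out mice of 3 to 4 months (young knockout), wildtype mice of 22 to 28 months (old wild type) and wildtype mice of 3 to 4 months (young wild type), with 3 libraries each. All 4 groups share the injury and the strain. The deleted stretch of Hoxa9, the cells that lost it and the number of animals in a library are not given in the labels. The p-values therefore cover the spread between these samples alone, which may be technical.

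Each alpha chain pairs with a beta chain, and the pair decides the ligand. Itga3, Itga6 and Itga7 pair with Itgb1 to bind laminins of the basement membrane. Itga5 with Itgb1 is the main fibronectin receptor, and Itgav with Itgb1, Itgb3 or Itgb5 binds proteins that carry the RGD motif, such as fibronectin and vitronectin. Itga9 with Itgb1 binds tenascin C and osteopontin. In muscle, Itga7 with Itgb1 is the main laminin receptor of myoblasts and fibres, and satellite cells lie under the same laminin sheet. The cytoplasmic tail of the beta chain recruits talin, kindlin and further adaptors that link it to actin and to kinases.

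Libraries held 4193433 to 20337015 reads in genes, and reads outside genes made up 32.2% to 70.8% of uniquely aligned reads. That share was highest in old knockout replicate 3 and old wild-type replicate 2, and old knockout replicates 2 and 3 stood apart from the other 10 libraries by high counts of Y-linked genes. Hoxa9 itself was lower in old knockout than in old wild type by a log2 fold change of -1.63 ± 0.25 (adjusted p = 0.00235, edgeR), and -0.67 ± 0.24 in young mice missed the threshold (adjusted p = 0.0671). Each knockout library still held 22 to 87 reads of Hoxa9. Pax7 stood at 169 to 243 CPM in the 6 knockout libraries and between 201 and 397 CPM in the 6 from wild type, so the label satellite cells had its defining marker in each library; it was lower in young knockout than in young wild type (-0.66 ± 0.14, adjusted p = 0.00568). Across genes, the relative level of a gene ran against its GC content in all 6 knockout libraries (Spearman's rho -0.525 to -0.125) and with it in all 6 wild-type libraries (rho 0.226 to 0.471). This describes the libraries and is no test, since genes do not vary independently. The trend separated the genotypes completely, so genotype and this difference between libraries cannot be told apart here. The GC content of the longest transcript was 57.9% for Itga3, 57.8% for Itga7, 57.3% for Itga5 and 57.0% for Itgb5, and 44.8% for Itgb1 and 43.5% for Itgav.

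The start regions of 3 chains are shown because much of the account below is about them: Itga5 was lower in knockout cells, while Itgav and Itgb1 had higher values there. They span 250 bases before to 50 bases after the gene's start in RefSeq on build GRCm38.p6, and 6 of the 9 members had such an entry. Capitals mark matches, on either strand, to an E-box (CANNTG, bound by basic helix-loop-helix factors such as MyoD), a GC box (GGGCGG, bound by Sp factors) or CGTAAA, a core of sites bound by posterior HOX proteins. The motifs were chosen after the sequences had been seen. Itga5 is read from the minus strand at chr15:103366742-103367041, Itgav from the plus strand at chr2:83724147-83724446 and Itgb1 from the plus strand at chr8:128685404-128685703.
Itga5: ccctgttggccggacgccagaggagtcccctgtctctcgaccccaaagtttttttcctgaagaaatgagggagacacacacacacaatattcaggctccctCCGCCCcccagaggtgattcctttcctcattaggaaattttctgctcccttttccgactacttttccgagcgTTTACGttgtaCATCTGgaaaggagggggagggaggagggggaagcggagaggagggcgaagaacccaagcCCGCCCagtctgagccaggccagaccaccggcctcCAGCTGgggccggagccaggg
Itgav: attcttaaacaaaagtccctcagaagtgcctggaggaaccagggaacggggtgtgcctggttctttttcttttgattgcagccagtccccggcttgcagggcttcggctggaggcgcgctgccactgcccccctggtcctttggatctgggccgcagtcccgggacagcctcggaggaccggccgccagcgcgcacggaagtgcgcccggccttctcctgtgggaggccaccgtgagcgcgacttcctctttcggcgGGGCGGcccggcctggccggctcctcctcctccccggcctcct
Itgb1: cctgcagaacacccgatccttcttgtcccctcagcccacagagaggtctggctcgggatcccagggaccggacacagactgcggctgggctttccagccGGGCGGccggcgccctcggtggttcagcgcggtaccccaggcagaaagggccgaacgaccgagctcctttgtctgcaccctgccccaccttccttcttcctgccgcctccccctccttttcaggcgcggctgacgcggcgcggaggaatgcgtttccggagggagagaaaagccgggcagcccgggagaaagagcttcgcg
The Itga5 window held 2 E-boxes, 2 GC boxes and 1 CGTAAA match, without overlap between motifs. The Itgav and Itgb1 windows held 1 GC box each and no match to the other motifs. The motifs do not sort the chains by their values: the window of Itgb5, which passed in no comparison, held 3 E-boxes, 3 GC boxes and 1 CGTAAA match, and neither of the 2 windows of Itga3, lower in young knockout, held CGTAAA. Of 32851 such windows, 72.3% held an E-box, 35.7% a GC box and 3.03% CGTAAA. A match describes letters in a window and not a bound site.

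Levels are given in CPM, a gene's counts relative to all gene reads of its library after scaling. Genes are compared with each other in CPM per kb of exon unless stated. Per length, Itgb1 and Itga7 were far above the other chains in all 4 groups. Itgb1 stood at 313 ± 29.3 CPM per kb in old knockout, 276 ± 16.0 in young knockout, 193 ± 14.3 in old wild type and 209.5 ± 25.1 in young wild type (SD, n = 3 each). Itga7 stood at 154 ± 11.03 CPM per kb in old knockout, 139.8 ± 20.6 in young knockout, 209 ± 1.88 in old wild type and 195 ± 5.51 in young wild type. The order of these 2 chains differed between groups. Every library of both knockout groups had Itgb1 above Itga7 per length, without overlap of the 2 genes' values within a group. In old wild type Itga7 was above Itgb1 without overlap, and in young wild type the 2 overlapped. This order rests on the exon lengths used, 8.09 kb for Itga7 and 4.08 kb for Itgb1, each the union over all transcripts. Without division by length, Itga7 and Itgb1 averaged 1249 and 1279 CPM in old knockout and 1131 and 1128 CPM in young knockout. The order also carries the GC trend, since Itga7 has 57.8% GC and Itgb1 44.8%.

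Itgav, Itga5 and Itgb5 formed a middle tier, and Itga9 and Itgb3 were at the bottom in every group. In old knockout the middle tier held Itgav at 26.7, Itga5 at 21.7 and Itgb5 at 21.3 CPM per kb, with overlapping libraries. In old wild type Itga5, at 38.2 CPM per kb, was above Itgav at 20.7 without overlap, and Itgav and Itgb5 overlapped. In young knockout Itgav stood at 25.0, Itgb5 at 23.9 and Itga5 at 18.3 CPM per kb. There Itgb5 overlapped with each of the other 2 chains, whereas Itgav, at 24.2 to 26.4 CPM per kb, lay just above the 12.4 to 24.0 of Itga5 without overlap. Young wild type had Itga5 first again, at 36.2 CPM per kb, above Itgb5 at 23.5 without overlap. Itga6 and Itga3 followed with group means of 2.52 to 8.92 CPM per kb, and Itga9 and Itgb3 had group means of 0.54 to 1.51 CPM per kb. Only 33 to 177 reads per library stood behind Itga9 and 10 to 94 behind Itgb3, against 4257 to 21124 behind Itgb1.

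**Figure D1:**
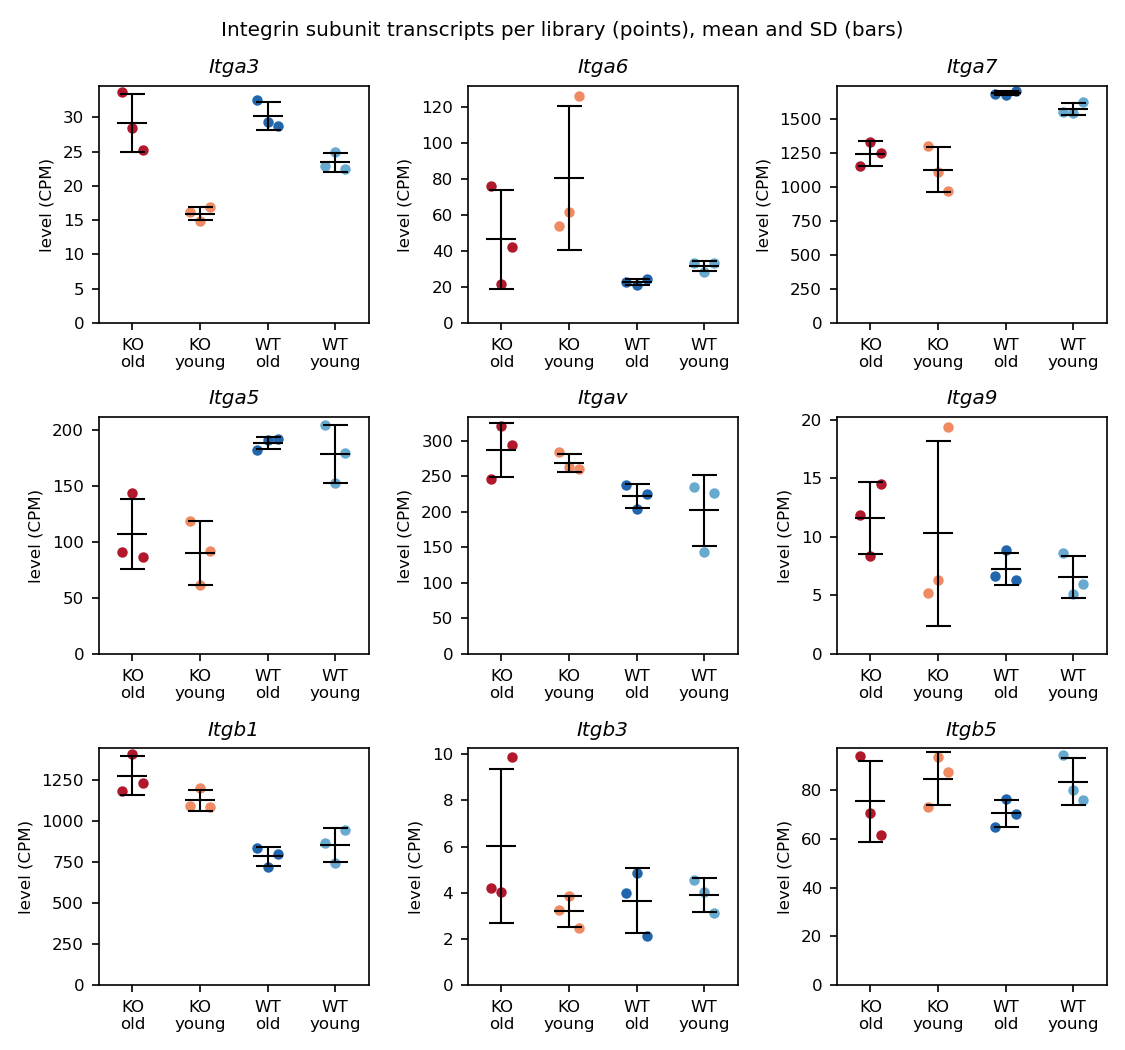
Level in CPM (y axis, from 0) of each of the 9 chains in the 12 libraries, by group (x axis); points are libraries, and bars give the mean and SD of 3. Itgb1 sits at 1086 to 1414 CPM in the 6 knockout libraries and between 723 and 949.7 CPM in the 6 from wild type, and Itga7 at 972 to 1337 CPM in knockout against 1548 to 1709 CPM in wild type.

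Old knockout libraries had more Itgb1 transcript and less Itga5 and Itga7 transcript than old wild type. In old knockout against old wild type, 1 of the 9 chains was higher and 2 were lower at an adjusted p under 0.05 (quasi-likelihood test, edgeR), and 6 did not pass. Of all 13540 genes tested, 16.7% were called in this comparison, 9.52% higher and 7.21% lower. The median log2 fold change was 0.37 over the 9 chains and -0.01 over all genes. The libraries of the 2 groups did not overlap for 4 chains, and for 42% of all genes. With offsets for GC content and length, Itgb1 alone stayed past the threshold. With library size alone as the scale, the calls over all genes were 359 higher and 1827 lower, in place of 1289 higher and 976 lower.

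In young mice the fibronectin chain Itga5 and the laminin chains Itga7 and Itga3 were lower in knockout, and Itga6, also a laminin chain, was higher. That made 4 of 9 chains called in young knockout against young wild type, 1 higher and 3 lower, where 20.9% of all genes were called, 10.9% higher and 10% lower. The median log2 fold change was 0.02 over the 9 chains and -0.02 over all genes. Groups did not overlap for 6 chains and for 35.7% of all genes. With offsets for GC content and length, no chain stayed past the threshold in young mice. Library size alone gave 865 higher and 1278 lower calls over all genes, in place of 1477 and 1354, and leaving Lars2 out gave 1796 and 1092. Lars2 took 0.48% to 25.0% of the reads in genes in the 6 knockout libraries, with the most in old knockout replicate 3. In the 6 wild-type libraries it took 0.026% to 0.11%.

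Age alone moved no chain past the threshold. In old against young wild type 0 of 9 chains were called by edgeR and 0 by DESeq2, where edgeR called 1.06% of all genes. In edgeR 1 chain, Itga3, had an unadjusted p under 0.05, as did 1918 of all 13540 genes. Groups did not overlap for 3 chains and for 26.8% of all genes. In old against young knockout 0 of 9 were called by edgeR and 1, Itga3, by DESeq2. There edgeR called 0.0148% of all genes, and DESeq2 called more genes than edgeR. Itga3 was again the only chain with an unadjusted p under 0.05 in edgeR, where 1316 of 13540 genes had one. Groups did not overlap for 2 chains and for 11.6% of all genes. The difference between the 2 genotypes' age effects was past the threshold for 0 of 9 chains by either tool, and for 0.0148% of all genes in edgeR. In edgeR 1 chain, Itga3, had an unadjusted p under 0.05 for it, as did 1316 of 13540 genes. Each group enters 2 of these comparisons, so their values are not independent.

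**Figure D2:**
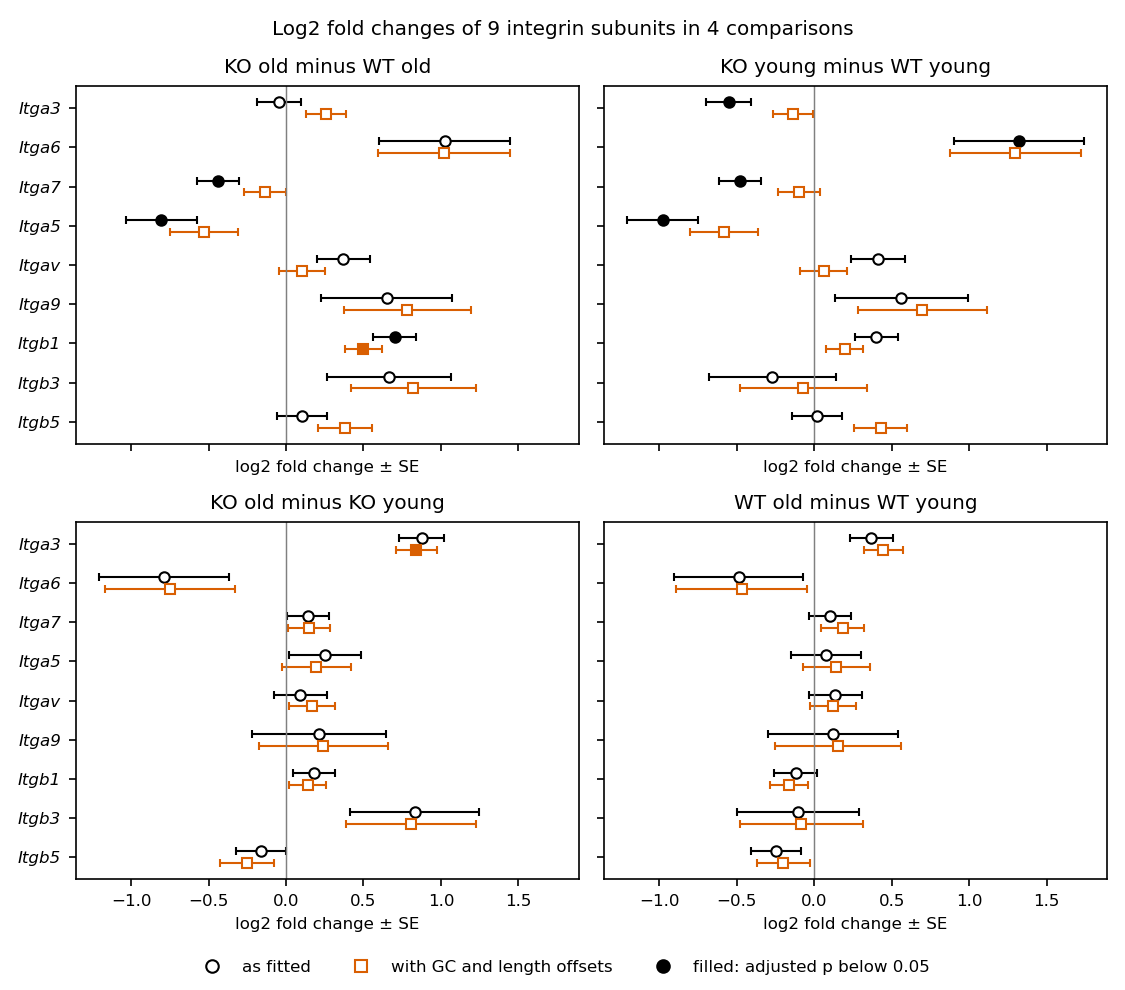
Log2 fold change with its SE (x axis) of each chain (y axis) in 4 comparisons; circles are the fit as reported, squares the fit with offsets for GC content and length, and filled symbols have an adjusted p under 0.05. Itgb1 in old mice stays filled with offsets (0.50 ± 0.12), whereas Itga5 and Itga7 do not, and Itga3 in old mice has -0.05 as fitted and 0.26 with offsets.

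Itgb1 encodes the beta chain common to the laminin, fibronectin and tenascin receptors. It had 1185, 1414 and 1237 CPM in the old knockout libraries, against 838, 723 and 798 CPM in old wild type. All 3 old knockout libraries were above all 3 old wild-type libraries, and the log2 fold change was 0.70 ± 0.14 (SE, adjusted p = 0.00671, edgeR). In young mice Itgb1 had 1095, 1203 and 1086 CPM in knockout and 869, 746 and 949.7 CPM in wild type. Those groups did not overlap either, with a log2 fold change of 0.40 ± 0.14 that missed the threshold (adjusted p = 0.0543, edgeR); without young knockout replicate 3 it was 0.47 and passed (adjusted p = 0.0479). The knockout effect was not shown to differ between ages, since the difference of 0.30 ± 0.19 had an adjusted p of 0.641 (edgeR).

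With offsets for GC content and length, the Itgb1 difference in old mice was 0.50 ± 0.12 and stayed past the threshold (adjusted p = 0.0241, edgeR), the only chain of the 9 to do so. In young mice it was 0.20 ± 0.12 (adjusted p = 0.327). Without the 2 libraries that had the most reads outside genes the old-mouse value was 0.68 ± 0.19 and no longer passed (adjusted p = 0.107), nor did 0.60 ± 0.21 without the 2 old knockout libraries with high Y-linked counts (adjusted p = 0.159). In a bulk sample, more cells of a type and more RNA per cell cannot be told apart.

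Itga7, the laminin-binding alpha chain of muscle, had 1158, 1337 and 1250.2 CPM in old knockout, against 1689, 1679.6 and 1709 CPM in old wild type. It had 1305, 1116 and 972 CPM in young knockout, against 1557, 1548 and 1629 CPM in young wild type. At both ages every knockout library was below every wild-type library. The log2 fold changes were -0.44 ± 0.14 in old mice (adjusted p = 0.0434, edgeR) and -0.48 ± 0.14 in young mice (adjusted p = 0.0249). With GC and length offsets they were -0.13 (adjusted p = 0.557) and -0.10 (adjusted p = 0.689), and neither passed. The old-mouse call was lost in each of the 6 fits that left out 1 library (adjusted p = 0.0595 to 0.159). The young-mouse call held without young knockout replicate 1 and without young wild-type replicate 1, and was lost without any of the other 4 (-0.50 to -0.34, adjusted p = 0.0552 to 0.126). The old wild-type libraries were 0.10 higher than young wild type on the log2 scale without overlap, far from the threshold (adjusted p = 0.811).

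Itga7 made up most of the alpha chain transcripts in each library. Of the summed CPM per kb of the 6 alpha chains, it took 71.4%, 71.0% and 73.4% in old knockout, against 75.4%, 75.8% and 75.6% in old wild type. In young mice it took 72.9%, 74.5% and 65.9% in knockout and 72.7%, 78.5% and 75.4% in wild type. In old mice the shares did not overlap and differed by -3.61 percentage points (two-sided exact permutation test, p = 0.1, the smallest that 3 against 3 allows). The young groups overlapped, and their difference of -4.42 points had an exact p of 0.3. Between old and young the Itga7 share differed by 0.86 points in knockout and by 0.05 points in wild type (exact permutation p = 0.9 for each).

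The fibronectin chain Itga5 and the RGD chain Itgav went opposite ways between genotypes in the rest of the alpha pool. Itgav took 12.4% ± 0.860 in old knockout and 12.8% ± 0.740 in young knockout, against 7.46% ± 0.520 in old wild type and 7.23% ± 1.51 in young wild type (SD, n = 3 each). Itga5 took 10.03% ± 2.18 in old knockout and 9.25% ± 2.22 in young knockout, against 13.8% ± 0.408 in old wild type and 13.96% ± 1.52 in young wild type. Neither chain's shares overlapped between the genotypes at either age. Shares within a library do not depend on the scaling between libraries but do carry the GC trend, since Itgav is the poorest of the 9 in GC and Itga5 is among the richest.

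**Figure D3:**
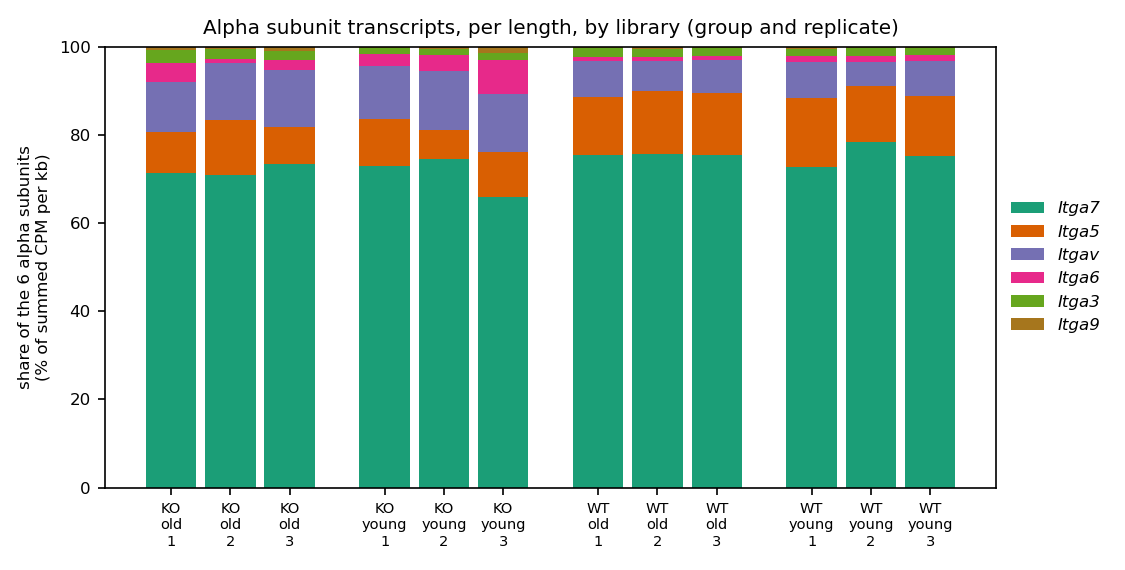
Share of each alpha chain in the summed CPM per kb of the 6 alpha chains (y axis, percent) in each of the 12 libraries (x axis, by group and replicate). Itga7 fills 65.9% to 78.5% of every bar, and the Itgav band is 12.4% and 12.8% on average in old and young knockout against 7.46% and 7.23% in old and young wild type.

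Itga5 had 91.2, 143 and 86.9 CPM in old knockout, against 182, 191 and 192 CPM in old wild type. In young mice it had 118, 61.4 and 91.7 CPM in knockout and 204, 152 and 179 CPM in wild type. The knockout libraries were below the wild-type libraries at both ages, and they were also more spread out. The log2 fold change was -0.81 ± 0.23 in old mice (adjusted p = 0.0321, edgeR) and -0.98 ± 0.23 in young mice (adjusted p = 0.0109). With GC and length offsets the values were -0.53 ± 0.22 (adjusted p = 0.141) and -0.58 ± 0.22 (adjusted p = 0.119), and neither passed. The old-mouse call held without old knockout replicate 2 (-1.08, adjusted p = 0.0124) and was lost without any of the other 5 libraries (adjusted p = 0.0786 to 0.141). The young-mouse call was lost without young knockout replicate 2 (-0.71, adjusted p = 0.0574). Without the 2 libraries with most reads outside genes the old-mouse value was -0.65 ± 0.30 (adjusted p = 0.259).

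Itgav went the other way without passing the test. Old knockout had 246, 321 and 293 CPM and old wild type 237, 204 and 224 CPM, and young knockout had 284, 263 and 260.1 CPM against 235, 144 and 227 CPM in young wild type. Groups did not overlap at either age, with log2 fold changes of 0.37 ± 0.17 (adjusted p = 0.151, edgeR) and 0.41 ± 0.17 (adjusted p = 0.103). GC and length offsets brought these to 0.11 and 0.06. In the mouse annotation 634 exon bases of Itgav lie opposite the gene Gm13684, and none of the sources used here says whether reads were counted by strand.

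Itga3, a laminin-binding alpha chain known best from epithelia, had higher values in old than in young libraries of both genotypes without passing the test. Old knockout had 33.7, 28.5 and 25.3 CPM, against 16.2, 14.9 and 16.9 CPM in young knockout. Old wild type had 32.5, 29.3 and 28.7 CPM, against 22.9, 25.0 and 22.5 CPM in young wild type. Old libraries were above young ones in each genotype, without overlap. The log2 fold change was 0.88 ± 0.15 in knockout (unadjusted p = 3.94e-05, adjusted p = 0.0652, edgeR) and 0.37 ± 0.14 in wild type (adjusted p = 0.237), neither past the threshold. In knockout the value passed with DESeq2 (0.84, adjusted p = 0.000697) and in edgeR with GC and length offsets (0.84 ± 0.13, adjusted p = 0.0372), and without young knockout replicate 3 (0.90, adjusted p = 0.0307). The difference between the genotypes' age effects, 0.51 ± 0.20, had an adjusted p of 0.462.

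Between genotypes Itga3 passed the threshold in young mice, lower in knockout by a log2 fold change of -0.55 ± 0.15 (adjusted p = 0.0170, edgeR). Without young knockout replicate 2 it was -0.45 (adjusted p = 0.101) and without young wild-type replicate 2 it was -0.51 (adjusted p = 0.0626). In old mice the groups overlapped at -0.05 ± 0.14 (adjusted p = 0.848). With GC and length offsets the young-mouse value was -0.14 ± 0.13 (adjusted p = 0.542) and the old-mouse value turned positive, 0.26 ± 0.13 (adjusted p = 0.205). Per library 68 to 529 Itga3 reads were counted.

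Itga6, the laminin-binding alpha chain also common on nerve sheath and vessel cells, was uneven among the knockout libraries. Old knockout had 76.0, 21.4 and 42.1 CPM and old wild type 22.9, 21.0 and 24.2 CPM. Young knockout had 53.6, 61.7 and 126 CPM and young wild type 33.6, 28.5 and 33.3 CPM. The wild-type libraries lay close together, whereas old knockout replicate 2 fell within the old wild-type range. The young groups did not overlap, and the log2 fold change was 1.32 ± 0.42 (adjusted p = 0.0477, edgeR). It was 1.30 ± 0.42 with GC and length offsets (adjusted p = 0.0853), and the call held without young knockout replicate 1 (1.55, adjusted p = 0.0361) and was lost without any of the other 5 libraries (0.89 to 1.53, adjusted p = 0.0654 to 0.143). In old mice 1.02 ± 0.42 did not pass (adjusted p = 0.121), whereas 1.39 without old knockout replicate 2 did (adjusted p = 0.0244) and without old knockout replicate 1 the value was 0.46. With age Itga6 had -0.79 ± 0.42 in knockout and -0.49 ± 0.42 in wild type, neither past the threshold (adjusted p = 0.590 and 0.670), although the wild-type groups did not overlap.

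Marker sums of several cell types ran with Itga6 inside the knockout groups, among them those of Schwann cells, the glia around muscle nerves. The summed level of 4 Schwann markers (Sox10, Mbp, Ngfr and Pmp22) was 306, 189 and 284 CPM in old knockout replicates 1, 2 and 3, and 125, 152 and 542 CPM in young knockout replicates 1, 2 and 3. The 9 endothelial markers summed to 43.3, 25.0 and 34.0 CPM in the same old knockout libraries and 39.2, 45.8 and 75.0 CPM in the young ones, and the 10 satellite cell markers to 6361, 5022 and 5335 CPM and to 4467, 5034 and 7741 CPM. All 3 sums had the rank order of Itga6 in both knockout groups, highest in old replicate 1 and young replicate 3. The macrophage, neutrophil, platelet, fibroblast, tendon, pericyte, muscle fibre and choroid plexus sums did not have that order in both groups. Of the satellite cell markers Sdc4 varied most, at 1210 ± 377 CPM in old and 1477 ± 1293 CPM in young knockout (SD, n = 3 each). Pax7 had 201 ± 31.4 and 232 ± 15.3 CPM there. In old mice the Schwann sum was above the 159 to 166 CPM of old wild type in all 3 knockout libraries. In young mice it overlapped between genotypes, with 201 to 263 CPM in young wild type, where Itga6 had 28.5 to 33.6 CPM. Endothelial sums were 31.5 to 48.3 CPM in old wild type and 44.1 to 48.7 CPM in young wild type. Of the 4 Schwann markers 0 passed the edgeR test in either knockout comparison, with 1, Ngfr in young mice, at an unadjusted p under 0.05. The part of these cell types in the Itga6 values was not tested.

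Itga9, Itgb5 and Itgb3 passed in no comparison. Itga9, the tenascin and osteopontin receptor chain, had 11.9, 8.36 and 14.5 CPM in old knockout and 6.64, 8.84 and 6.33 CPM in old wild type (0.65 ± 0.42, adjusted p = 0.309, edgeR). Young knockout had 5.22, 6.29 and 19.4 CPM, against 8.59, 5.09 and 6.01 CPM in young wild type, so replicate 3 alone set the young knockout group apart (0.56 ± 0.43, adjusted p = 0.375). That library also had the highest Schwann, endothelial and satellite cell sums of the 12. Sdc4 varied most among the satellite cell markers in young knockout. Itgb5, a beta partner of Itgav, overlapped between groups in all 4 comparisons. It had 94.2, 70.9 and 61.9 CPM in old knockout and 73.0, 94.0 and 87.7 CPM in young knockout. In wild type it had 65.0, 76.3 and 70.3 CPM in old and 94.5, 80.4 and 75.9 CPM in young mice.

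Itgb3, the beta chain that platelets carry with Itga2b, had 4.21, 4.02 and 9.88 CPM in old knockout and 3.23, 3.85 and 2.48 CPM in young knockout. Old wild type had 4.00, 4.87 and 2.11 CPM and young wild type 4.56, 4.01 and 3.13 CPM. The 2 knockout ages did not overlap, their log2 fold change was 0.83 ± 0.42 and missed the threshold (adjusted p = 0.547, edgeR), and old knockout replicate 3 was the highest of the 12 libraries. The same library had the highest sum of 8 platelet genes, 37.2 CPM, against 5.26 to 19.5 CPM in the other 11, and Ppbp, a platelet chemokine, at 14.8 CPM there and at most 0.60 CPM elsewhere. Ppbp did not pass the low-count filter. Of the 4 platelet genes tested in old mice 0 passed between genotypes, and 1 log2 fold change was positive. Old knockout replicate 3 also had the highest neutrophil (97.6 CPM) and tendon (922 CPM) marker sums. Without old knockout replicate 3 and old wild-type replicate 2, the Itgb3 age value in knockout was 0.33 ± 0.38. The part of these cell types in the Itgb3 values was not tested.

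The beta pool was nearly all Itgb1. Of the summed CPM per kb of the 3 beta chains, Itgb1 took 93.3% ± 1.62 in old knockout and 91.9% ± 0.717 in young knockout, against 90.3% ± 1.39 in old wild type and 89.6% ± 1.58 in young wild type (SD, n = 3 each). Itgb5 took 6.396% to 10.1% on average per group, and Itgb3 at most 0.31%.

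Across the 12 libraries, which share genotype and GC trend as common sources of variation, some of the chains varied together. Itga7 and Itga5 varied together (Pearson's r = 0.894 of log2 CPM), as did Itgb1 and Itgav (0.824). Itgb1 ran against Itga7 (-0.743) and against Itga5 (-0.710), and Itga7 ran against Itga6 (-0.885). Itgb3 had no coefficient above 0.284 or below -0.258 with any other chain, and Itgb5 had 0.0453 with Itgb1 and -0.181 with Itgav. Among all tested genes, those most like Itgb1 were Rac1 (0.967), a GTPase that acts downstream of integrins, Nudt19 (0.965) and Ssr3 (0.962). Those most like Itga7 were Ankrd13b (0.987), Tbc1d25 (0.975) and Chrnd (0.971), the delta subunit of the acetylcholine receptor. Itga5 was matched best by Sufu (0.977), an inhibitor of hedgehog signalling, Furin (0.975), a protease that cleaves integrin alpha chains among its substrates, and Stx4a (0.975). Eno3 (0.934), the muscle enolase, Got1 (0.917) and Pde4dip (0.899) were closest to Itga3, and Nr3c2 (0.967), Kcnj2 (0.953) and Ppp1r2 (0.952) to Itga6. These coefficients describe 12 libraries in 4 groups and carry no test.

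Integrin chains outside the 9 were higher in old knockout in 4 of 10 cases and lower in 0, where 9.52% of all genes were called higher and 7.21% lower. Itga1, a collagen receptor chain, averaged 48.2 ± 21.0 CPM in old knockout, against 19.5 ± 3.15 CPM in the 3 old wild-type libraries (SD, n = 3 each), and its log2 fold change was 1.30 (adjusted p = 0.0288, edgeR). Itga11, a collagen receptor chain of fibroblasts, had 1.34, Itgb8, an activator of latent TGF-beta, 1.06, and Itgb6, which does the same in epithelia, 0.63. The list's median was 0.83 in old mice and 0.24 in young mice, where 0 of 10 passed and 20.9% of all genes did. With GC and length offsets Itga1 and Itga11 remained called. Without the 2 libraries with most reads outside genes 0 of the 10 were called in old mice, and the same held for each pathway list named here. That fit called only 3 of all genes in this comparison, in place of 2265. Of the 8 leukocyte integrins, 5 were tested and 0 passed in any comparison. Itgam, the macrophage chain, had 6.46, 6.46 and 6.67 CPM in old wild type, against 1.65, 1.23 and 0.40 CPM in young wild type (adjusted p = 0.215).

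Among ligand genes, 1 of 10 laminin chains and 1 of 14 others were called in old knockout, where 16.7% of all genes were. Young knockout had 0 called in either list, where 20.9% of all genes were. Lama4, a laminin chain of vessels and muscle, had 74.1, 30.6 and 56.7 CPM in old knockout and 18.8, 20.6 and 21.2 CPM in old wild type (1.40 ± 0.38, adjusted p = 0.0293, edgeR), the 1 of 10 laminin chains called there. The median over the 10 was 0.57 in old mice and 0.25 in young mice, with 9 and 7 of the 10 values positive. Lamb1, a beta chain of muscle laminins, fell with age in wild type to 374, 335 and 373 CPM in old mice, against 823, 564 and 739 CPM in young mice (-0.97 ± 0.17, adjusted p = 0.0197). Of 14 ligands of the RGD-binding and Itga9 receptors, Thbs1 alone passed, at 914, 1069 and 1126 CPM in old knockout and 603, 527 and 652 CPM in old wild type (0.80 ± 0.18, adjusted p = 0.0106). Thbs1 encodes thrombospondin, a matrix protein that also binds CD47. The 14 ligands had a median of 0.66 in old mice and -0.03 in young mice, with 13 and 6 of the 14 values positive. Lama4 and Thbs1 remained called with GC and length offsets.

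Adaptors that join the beta tail to actin moved in both directions. In old knockout 4 of 24 were higher and 5 lower, and in young knockout 2 were higher and 6 lower, with list medians of -0.02 and -0.14. Of all genes 9.52% were called higher and 7.21% lower in old mice, and 10.9% and 10% in young mice. Bcar1, the docking protein p130Cas, had 139, 135 and 129 CPM in old knockout and 193, 184 and 191 CPM in old wild type (-0.49 ± 0.12, adjusted p = 0.0161, edgeR). In young mice it had 138, 114 and 104 CPM in knockout and 214, 229 and 217 CPM in wild type (-0.89 ± 0.12, adjusted p = 0.000831). Nedd9, a paralogue of Bcar1, had the opposite direction in old mice, 109, 112 and 131 CPM in knockout against 81.8, 69.8 and 72.5 CPM in wild type (0.65 ± 0.13, adjusted p = 0.00629). Of the complex of integrin-linked kinase, Ilk and Rsu1 were lower at both ages (-0.40 and -0.54 in old mice, -0.54 and -0.67 in young mice), whereas Lims1, the PINCH adaptor of the same complex, was higher at both (0.67 and 0.64). Filamin A (Flna) had 0.66 in old mice. Zyxin (Zyx), which gathers at tensed actin, had -0.87 in young mice. With GC and length offsets 3 of the 9 calls in old mice (Flna, Nedd9 and Rsu1) and 3 of the 8 in young mice (Tln2, Rsu1 and Bcar1) remained. Over all genes 944 of 2265 calls in old mice and 753 of 2831 in young mice remained.

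The small GTPases Rap1b and Rac1 were higher in knockout at both ages. Rap1b, the GTPase that switches integrins to the active state, had 190.3, 192 and 200.2 CPM in old knockout and 116, 111 and 121 CPM in old wild type (0.75 ± 0.12, adjusted p = 0.00258, edgeR). Rac1, which drives lamellipodia, had 247, 279 and 245 CPM in old knockout and 160.2, 158 and 169 CPM in old wild type (0.66 ± 0.11, adjusted p = 0.00301). In young mice Rap1b had 0.71 and Rac1 0.40 (adjusted p = 0.00168 and 0.0187). In all 4 of 23 kinases, GTPases and exchange factors were higher and 2 lower in old mice, and 8 higher and 3 lower in young mice, with medians of 0.23 and 0.24. Over all genes the shares were 9.52% higher and 7.21% lower in old mice, and 10.9% and 10% in young mice. Rock1, a kinase that raises actomyosin tension, had 0.74 and 0.92, and Git1, a scaffold of the Pak and Pix proteins, -0.54 and -0.72. With GC and length offsets Rac1 was the 1 call of the list that remained at each age (0.63, adjusted p = 0.00378, and 0.40, adjusted p = 0.0214), so Rap1b, Rock1 and Git1 did not.

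Of the membrane proteins and tail-binding proteins that modulate integrins, about as large a share passed as of all genes. Cd63, a tetraspanin that travels with integrins, had 183, 214 and 182 CPM in old knockout and 359, 327 and 314 CPM in old wild type (-0.79 ± 0.14, adjusted p = 0.00386, edgeR). It had 177, 159.8 and 214 CPM in young knockout and 298, 334 and 354 CPM in young wild type (-0.84 ± 0.14, adjusted p = 0.00171). Dab2, an endocytic adaptor for the beta tail that macrophages also express, was lower in old mice (-1.22), and the tetraspanins Cd82 and Cd81 in young mice (-0.50 and -0.51). In all 0 of 16 were higher and 2 lower in old mice, and 0 higher and 3 lower in young mice, with medians of -0.16 and -0.27, where 16.7% and 20.9% of all genes were called. The 2 old-mouse calls remained with GC and length offsets and the 3 young-mouse calls did not.

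**Figure D4:**
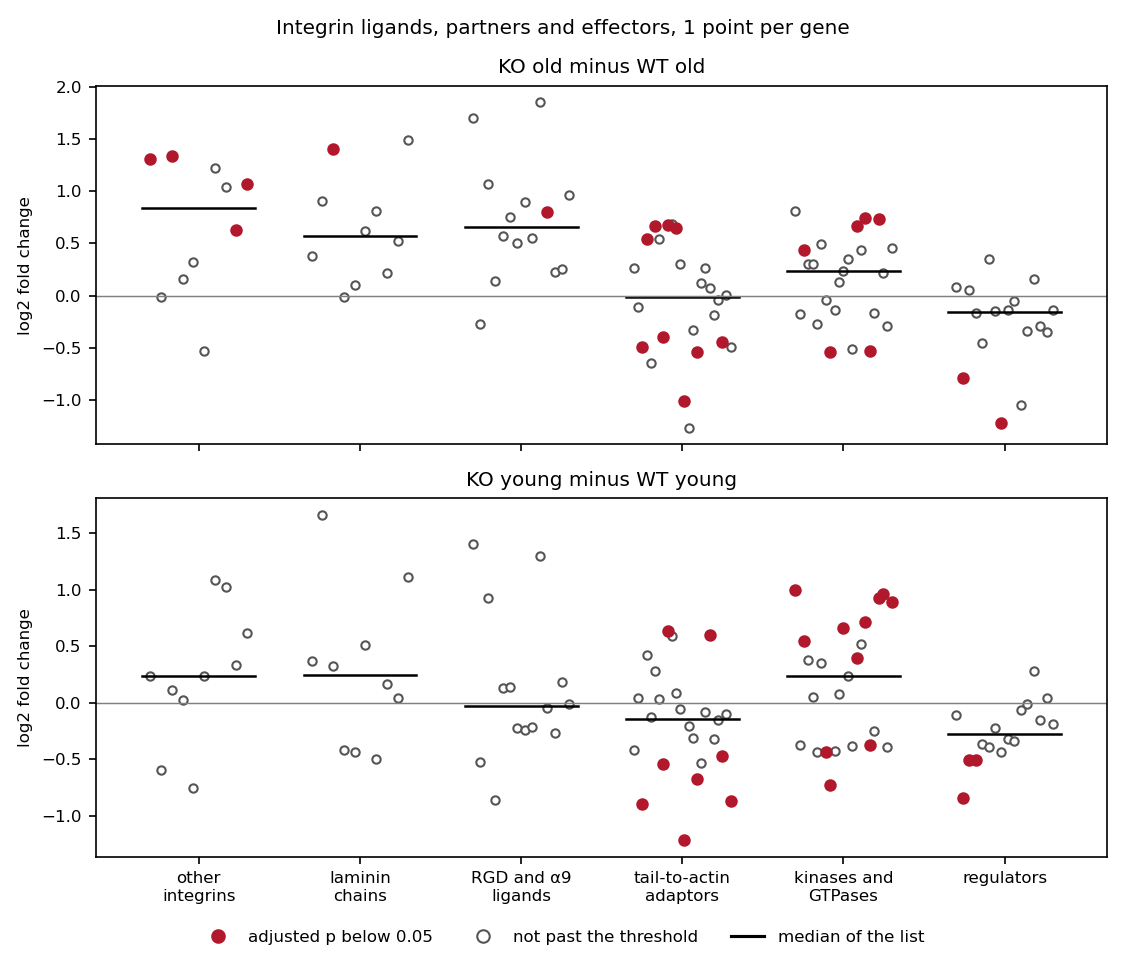
Log2 fold change (y axis) of each tested gene in 6 lists of integrin partners (x axis), in old mice above and young mice below; filled points have an adjusted p under 0.05 and lines are list medians. Adaptors have filled points on both sides of 0 (4 higher and 5 lower in old mice), kinases and GTPases mostly above it (8 higher and 3 lower in young mice).

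Markers of some other cell types differed between the groups. Of the tested endothelial, Schwann, platelet and muscle fibre markers 0 were called in either knockout comparison, where 16.7% of all genes were called in old and 20.9% in young mice. The 16 macrophage markers summed to 25.1 to 107 CPM in old knockout and 28.0 to 199.5 CPM in young knockout, against 181 to 205 CPM in old wild type and 32.8 to 63.0 CPM in young wild type. Of 14 tested, 5 were lower in old knockout than in old wild type, where 7.21% of all genes were called lower. The 7 tendon markers summed to 99.5 to 922 CPM in old knockout and 39.4 to 52.7 CPM in old wild type, with 5 of 7 higher. Of the 6 neutrophil markers 3 were higher in old knockout, of 9 pericyte markers 3 and of 10 fibroblast markers 2, where 9.52% of all genes were called higher. In young knockout 1 neutrophil, 1 pericyte and 1 tendon marker were lower, and of the fibroblast markers Dcn was higher (2.31) and Col1a1 lower (-1.12, adjusted p = 0.0256, edgeR). Of all genes 10% were called lower and 10.9% higher there. The fibroblast markers summed to 3684 to 4901 CPM in old knockout and 3883 to 4398 CPM in young knockout, against 2701 to 3191 CPM in old wild type and 5208 to 6149 CPM in young wild type. This sum was thus higher in knockout in old mice and lower in young mice, without overlap. Most of it was Col3a1 and Col1a1, with means of 4163 and 1371 CPM in young wild type. Marker by marker, 6 of 10 log2 fold changes were positive in young mice, with a median of 0.65. The 8 choroid plexus genes were lower in knockout, 8 of 8 in old and 7 of 8 in young mice, where 7.21% and 10% of all genes were called lower. Ttr was at 0 in all 6 knockout libraries, against means of 1336 CPM in old and 2505 CPM in young wild type. The source of these transcripts was not tested. Old wild-type replicate 3 had 114 CPM over these 8 genes, the least of the wild-type libraries, and its Itga5, Itga7 and Itgb1 values lay with those of the other 2 old wild-type libraries. The 10 satellite cell markers summed to 5022 to 6361 CPM in old knockout, 4467 to 7741 CPM in young knockout, 5260.3 to 5787 CPM in old wild type and 6071 to 7671 CPM in young wild type. Of these 10, Fgfr4 was higher in old knockout (0.46, adjusted p = 0.0447), and Pax7 and Cdh15 were lower in young knockout (Cdh15 -0.61, adjusted p = 0.0103). Over all genes 9.52% were called higher in old knockout and 10% lower in young knockout. With age in wild type, Pax7 (-0.72, adjusted p = 0.0271) and Fgfr4 (-0.77, adjusted p = 0.0264) were lower in old mice, where 1.06% of all genes were called. The part of these cell types in the integrin values was not tested.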

How the data were processed

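RNA-seq counts of 12 libraries were used, 3 in each of 4 groups taken from the labels. The deposited files hold whole-number read counts per gene symbol. Per the submitters' processing notes TopHat, HTSeq, DESeq2 and build mm9 were used, without versions; per the labels' protocols the kit was stranded with removal of ribosomal RNA. Whether counting used strand is not stated in the sources used here. The counter's 5 summary lines were left out of totals and fits; reads outside genes were 32.2% to 70.8% of uniquely aligned reads and ambiguous ones 0.433% to 1.37%.

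Genes were filtered with filterByExpr, scaled by trimmed-mean (TMM) factors and tested in edgeR 4.0.16 (R 4.3.3, glmQLFit robust, 1 mean per group over 12 libraries), with Benjamini-Hochberg adjustment over 13540 genes and 0.05 as threshold. The SE is the log2 fold change divided by the square root of F. Log2 fold changes are knockout minus wild type or old minus young. CPM uses the scaled library sizes. Length and GC content were read from GENCODE M21 for the 92.2% of symbols that matched. The build of that annotation is not mm9, and its coordinates were used only for exon length and for exon overlap between genes. GC and length offsets are loess curves per library (span 0.3). The same-numbered libraries showed no shared deviation that held across groups, so no pairing was used.

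Alternatives were DESeq2 1.42.0, other scaling, no filter, only the groups compared, a replicate block, GC and length offsets, no Lars2, and leaving out libraries. The code was tested on simulated data. The members and all gene lists were chosen with earlier results of these data known. Named were all 9 members, Hoxa9, up to 4 called genes per list and comparison by smallest p (or up to 2 abundant ones), and the 3 genes with the highest r for each called member; Tln2 and single markers of other cell types were named after their values were seen. Some marker genes were left out of the lists and are not reported here.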

Additional observations from a re-analysis of the deposited data

How the results depend on the processing

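Over the 5 comparisons and 9 chains, 359 values from settings other than leaving out 1 library kept direction and side of the threshold, 25 lost a call, 9 gained one and 21 changed sign. Without 1 library 264 kept both, 23 lost a call, 3 gained one and 34 changed sign. Calls between genotypes were limited by the GC trend, by 3 libraries a group and by 2 pairs of libraries that stand apart: offsets left 1 chain called in old mice and 0 in young mice, and the depth of 10 to 177 reads limits Itga9 and Itgb3. With library size alone the median of all genes was -0.26 in the old and -0.10 in the young knockout comparison and -0.15 for the difference of age effects, in place of -0.015, -0.016 and 0.0073; Itgb1 in old mice was then 0.45 (adjusted p = 0.0845). The cause of the changes was not tested.

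Chains called in old knockout numbered 1 without the low-count filter, 1 with a replicate block, 1 with offsets, 0 without the 2 libraries with most reads outside genes, 1 without the 2 old knockout libraries with high Y-linked counts, and 1 to 3 without 1 library. In young knockout they numbered 1 without the filter, 0 with offsets, 2 in a fit of only the groups compared and 0 to 4 without 1 library. For age in knockout they numbered 1 with DESeq2, 1 without the filter, 1 with offsets and 0 to 1 without 1 library, and for age in wild type 1 in a fit of only the groups compared (Itga6, -0.49, adjusted p = 0.0494). Same-numbered libraries correlated in their deviations by -0.261 to 0.231, and 3 of 18 pairs had their own number as best match. No pairing was thus seen, but deviations from means of few libraries cannot exclude one. Under the block Itga5 (adjusted p = 0.0543, edgeR) and Itga7 (0.0766) lost their calls in old mice.

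All genes called for age in wild type numbered 460 with DESeq2, 83 by library size alone (30 higher, 53 lower), 79 with the replicate block, 913 in a fit of only the groups compared, 2 without the 2 libraries with most reads outside genes and 6 to 73 without 1 library. For knockout in old mice they numbered 1319 with offsets (944 of them called in both), 3 without those 2 libraries, 121 without the 2 high in Y-linked counts and 779 to 1695 without 1 library. For knockout in young mice they numbered 1121 with offsets (753 in both), 1536 in a fit of only the groups compared and 1479 to 3140 without 1 library. For age in knockout they numbered 136 with DESeq2, 38 without the filter, 0 with the replicate block, 17 with offsets, 0 with only the groups compared, 1 without the first pair of libraries, 15 without the second and 0 to 102 without 1 library. For the difference of age effects they numbered 60 with DESeq2, 4 by library size alone, 6 without the filter, 1 with offsets, 0 without either pair of libraries and 0 to 116 without 1 library.

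Uncalled log2 values changed sign as follows. Library size alone gave Itgb5 -0.14 in old and -0.075 in young knockout, and for the difference of age effects Itga7 -0.13, Itga9 -0.10 and Itgb5 -0.060. Offsets gave Itga3 0.26 in old knockout and, for that difference, Itga7 -0.035, Itgav 0.046 and Itgb5 -0.049; DESeq2 and relative log expression factors gave Itga7 -0.0068 and -0.0094 there. Without the 2 libraries with most reads outside genes Itga9 was -0.018 for age in wild type and Itga3 0.031 in old knockout. Without the 2 high in Y-linked counts Itga3 was 0.16 in old knockout; for age in knockout Itga7 was -0.017, Itga5 -0.040, Itgav -0.18 and Itgb5 0.10, and for the difference of age effects Itga6 was 0.40, Itga7 -0.10 and Itga5 -0.10. Without 1 library the ranges that crossed 0 were, for age in wild type, Itga9 -0.036 to 0.37, Itgb3 -0.35 to 0.17, Itga5 -0.029 to 0.18 and Itgav -0.063 to 0.26. For knockout they were Itgb5 -0.055 to 0.24 and Itga3 -0.13 to 0.055 in old mice, and Itgb5 -0.047 to 0.12 and Itga9 -0.18 to 0.90 in young mice. For age in knockout they were Itga5 -0.025 to 0.50 and Itga9 -0.13 to 0.96. For the difference of age effects they were Itgav -0.16 to 0.16, Itgb5 -0.12 to 0.19, Itga6 -0.91 to 0.14, Itga7 -0.080 to 0.16, Itga5 -0.10 to 0.43 and Itga9 -0.25 to 0.85.

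The Itga7 share differed by -6.07 points in old mice without division by length, and by -4.34 to -3.14 points in old and -6.13 to -1.80 points in young mice without 1 library.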
